A study of Sus scrofa with 9 samples.

Results

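The prostaglandin synthesis and receptor genes were taken as 9 named genes and read from a table of 25149 genes measured in 9 pig hearts. They cover the release of arachidonic acid (PLA2G4A), its conversion to prostaglandin H2 (PTGS1, PTGS2), the terminal synthases (PTGES, PTGIS, PTGDS), receptors for prostaglandin E2 (PTGER2, PTGER4) and the enzyme that inactivates prostaglandins (HPGD). Of the 9 genes, 8 were listed by symbol, and 7 reached at least 1 TPM in at least 3 hearts and were tested, among 11782 genes in all. PTGDS, the gene of prostaglandin D synthase, was not found by symbol and was not analysed here. PTGER4 was listed at 0 in every heart. TPM are read counts corrected for the length of each gene and brought to the same sum in every heart, so that levels of different genes can be set side by side.

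All 9 hearts came from female American Yorkshire pigs of 4 to 6 months and underwent simulated donation after circulatory death with 15 min of warm ischemia. Group 1 (NRP + HOPE 24 h, pigs 27, 28 and 30) was first reperfused inside the donor with warm blood for 60 min (normothermic regional perfusion, NRP) and then received 24 h of hypothermic oxygenated perfusion (HOPE) at 8 °C. Group 2 (NRP + SCS 2 h, pigs 24, 25 and 29) received the same NRP and then 2 h of static cold storage (SCS) at 4 °C. Group 3 (No NRP + HOPE 2 h, pigs 31, 33 and 34) was procured directly and kept for 2 h in HOPE at 8 °C. Every heart was then reperfused for 2 h by normothermic machine perfusion (NMP) on a bench-top circuit primed with donor whole blood, unloaded, before 1 apex biopsy was frozen. The method, length and temperature of storage changed together between Groups 1 and 2. NRP changed together with storage method and temperature between Groups 2 and 3, and together with storage length between Groups 1 and 3, so these factors cannot be told apart.

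Prostaglandins are short-lived lipid signals made on demand. Phospholipase A2 frees arachidonic acid from membranes, the cyclooxygenases PTGS1 (COX-1, largely constitutive) and PTGS2 (COX-2, inducible by cytokines and injury) turn it into prostaglandin H2, and terminal synthases convert this intermediate to the active forms. In the heart and its vessels prostacyclin, made by PTGIS, relaxes vessels and restrains platelets. Prostaglandin E2, made by PTGES and other synthases, takes part in inflammation and acts through receptors such as PTGER2 and PTGER4. HPGD oxidises these products and ends the signal.

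The labels name the cell type as cardiomyocytes, but the biopsies were whole myocardium. Summed over the listed markers, cardiomyocyte genes reached 17874 to 32089 TPM in the 9 hearts, endothelial genes 204 to 470 TPM, fibroblast genes 390 to 655 TPM and macrophage genes 21.8 to 49.3 TPM. Platelet markers, of cells that carry PTGS1 and make thromboxane, summed to 2.63 to 5.47 TPM, and of the mast cell markers only KIT was listed, at 4.28 to 13.3 TPM. In bulk tissue, fewer cells of a type and less RNA per cell cannot be told apart. The share of TPM on 13 mitochondrially encoded genes ran from 38.2% to 55.3%, and the median-of-ratios factor, which measures how far the bulk of genes in a heart lies above or below the other hearts, ran from 0.737 in pig 27 to 1.34 in pig 30. Pigs 34 and 30 lay farthest from the other hearts over all tested genes. The row named COX2 in the table is the mitochondrial cytochrome oxidase gene and was not taken for PTGS2.

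Over the 9 hearts, PTGS2 had the highest median level of the 7 tested genes at 14.5 TPM, followed by PTGIS at 8.78 TPM, PTGES at 6.05 TPM, PTGS1 at 4.69 TPM, PLA2G4A at 4.35 TPM, HPGD at 1.77 TPM and PTGER2 at 0.970 TPM. From PTGS2 down to HPGD, each gene lay above the next one in 7 of 9 hearts, so that neighbours in this order changed places in some hearts. HPGD lay above PTGER2 in 4 of 9 hearts, and the order of these 2 genes was not settled. HPGD and PTGS2 varied more between hearts than the other 5 genes. The highest TPM was 42.2 times the lowest for HPGD, whose lowest value was 0.216 TPM in pig 24, 26.0 times for PTGS2 and 2.48 to 3.29 times for the other 5. On the log2(TPM + 1) scale the order of the first 2 turned, with mean absolute deviations of 0.68 for HPGD and 1.09 for PTGS2. The plot of TPM by heart shows that 3 genes were highest in pig 30 (PTGS1, PTGES and PTGIS), PTGS2 and PLA2G4A were highest in pig 28, and HPGD and PTGER2 were highest in pig 34.

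**Figure D1:**
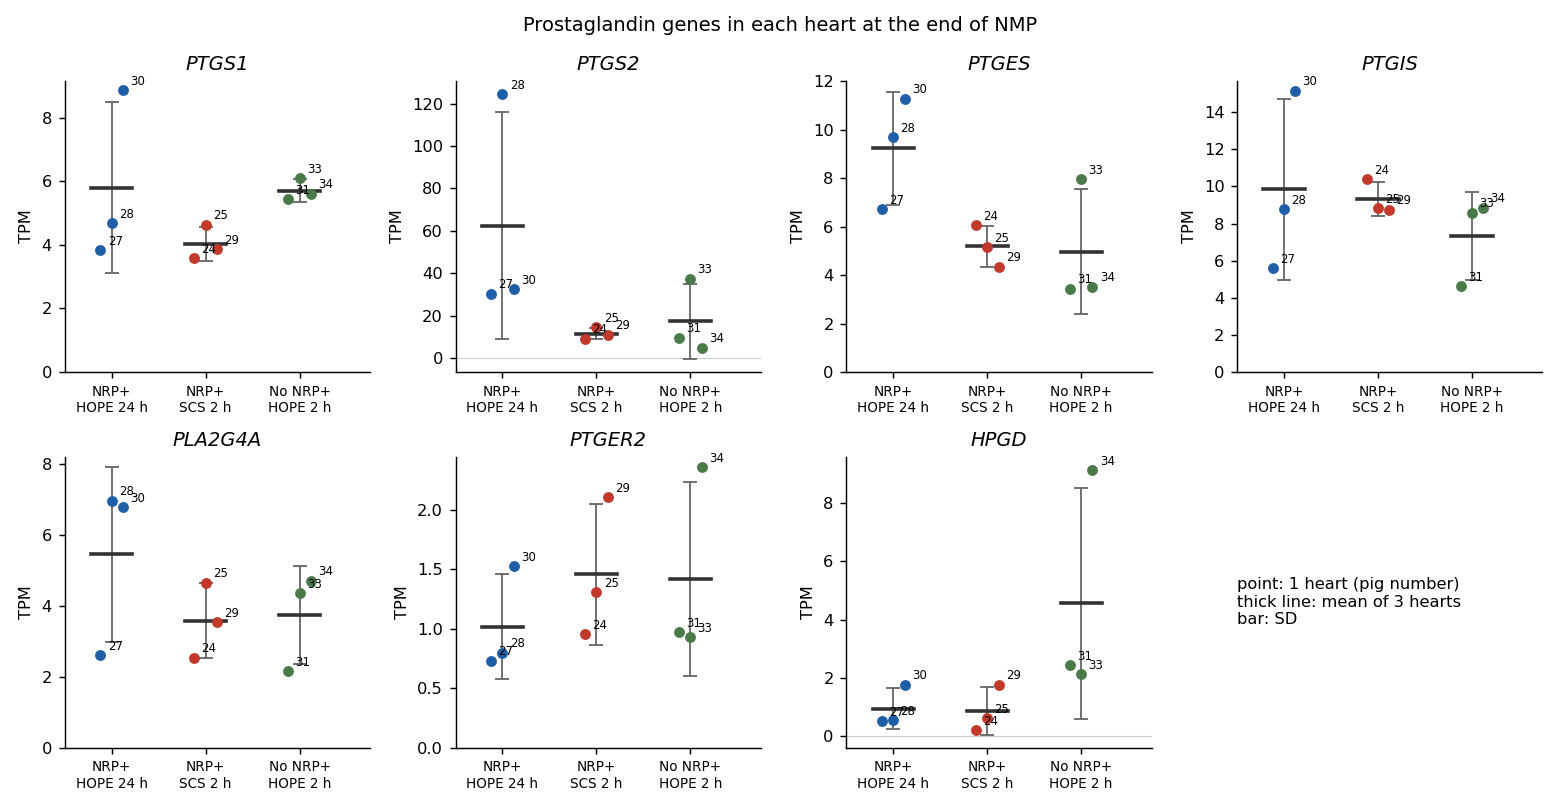
TPM of the 7 tested prostaglandin genes in each heart (1 panel per gene, vertical axis in TPM, each with its own scale), by group; points are single hearts with their pig numbers, thick lines are means of 3 hearts and bars are SD. PTGS2 was above 30 TPM in every Group 1 (NRP + HOPE 24 h) heart and under 15 TPM in every Group 2 (NRP + SCS 2 h) heart, and HPGD was above 2 TPM only in the Group 3 (No NRP + HOPE 2 h) hearts.

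No gene of the 7 passed an adjusted p of 0.05 in any of the 3 comparisons between groups (limma, Benjamini-Hochberg adjustment over 11782 genes). The background was low as well, since 0.0255% of all tested genes passed between Group 1 and Group 2, and 0.0509% in each of the other 2 comparisons. At an unadjusted limma p under 0.05 there was 1 of the 7 genes between Group 1 and Group 2 (PTGS2) against 4.97% of all genes. Between Group 3 and Group 2 there was 1 of the 7 (HPGD) against 7.22%, and between Group 1 and Group 3 there were 3 of the 7 (PTGS2 and PTGES higher, HPGD lower) against 6.01%, or 2.78% higher and 3.23% lower. An absolute log2 fold change over 1 was reached by 1, 1 and 2 of the 7 genes in these comparisons, against 3.16%, 4.6% and 4.24% of all genes. Without pig 34, the genes at an unadjusted limma p under 0.05 fell to 0 of 7 between Group 3 and Group 2, against 811 of 11541 genes tested. Between Group 1 and Group 3 they fell to 1 of 7, against 564 of 11541. Those past the log2 fold change of 1 fell to 0 and 1 of 7, against 635 and 491 of 11541. The limma F test over the 3 groups gave an unadjusted p under 0.05 for 2 of the 7 (PTGS2 and HPGD) against 6.26% of all genes, and an adjusted p under 0.05 for 0 of 7 against 0.102%. The 3 comparisons share hearts, so a low or high heart enters more than 1 of them. With 3 hearts against 3, the exact permutation test cannot give a two-sided p under 0.1.

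Of the cyclooxygenases, PTGS2 differed most between the groups. In Group 1 it reached 30.4 TPM in pig 27, 124 TPM in pig 28 and 32.6 TPM in pig 30, with a mean of 62.5 ± 53.7 TPM (SD, n = 3). In Group 2 it was at 9.19, 14.5 and 10.9 TPM in pigs 24, 25 and 29, with a mean of 11.5 ± 2.69 TPM (SD, n = 3). In Group 3 it was at 9.58, 37.5 and 4.79 TPM in pigs 31, 33 and 34, with a mean of 17.3 ± 17.7 TPM (SD, n = 3). Every heart stored for 24 h was above every Group 2 heart, while pig 33 of the group without NRP exceeded pigs 27 and 30. Between the same 2 groups, endothelial markers summed to 204 to 435 TPM in Group 1 and 419 to 454 TPM in Group 2. TEK and CLEC14A were lower in all Group 1 hearts, as 7.32% of all tested genes were, while PECAM1, VWF and KDR overlapped. Macrophage markers summed to 21.8 to 44.3 and 36.2 to 49.3 TPM. Of these, MRC1 was lower in all Group 1 hearts and CD68 overlapped. CD14 and CSF1R overlapped with higher means in Group 1, at 10.7 against 8.56 TPM and 1.36 against 0.934 TPM. Neutrophil markers summed to 0.357 to 3.89 and 2.02 to 13.2 TPM. The part of these cells in the PTGS2 and PTGES values was not tested.

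Between Group 1 and Group 2, mean PTGS2 was 5.41 times higher, and the log2 fold change of TPM + 1 was 2.04 (SE 0.62, limma p = 0.00566, adjusted p = 0.669, exact permutation p = 0.1). Pig 28 had the highest value of all, and without it the log2 fold change was 1.39 (limma adjusted p = 1). Over the other settings tried the value ran from 1.39 to 2.68, with limma adjusted p from 0.0869 to 1. Against Group 3 the log2 fold change of Group 1 was 1.94 (SE 0.62, limma p = 0.00795, adjusted p = 0.513), with overlapping groups (exact permutation p = 0.3), and 1.29 without pig 28. Group 3 and Group 2 differed by 0.11 (SE 0.62, limma adjusted p = 0.988), and this value turned to -0.66 without pig 33 and was 0.87 with array weights, by which limma gives less weight to hearts that vary more. The limma F test over all 3 groups gave an adjusted p = 0.497 for PTGS2.

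PTGS1 stayed within a narrower range. It was at 3.84, 4.69 and 8.86 TPM in pigs 27, 28 and 30 of Group 1, at 3.58, 4.63 and 3.87 TPM in pigs 24, 25 and 29 of Group 2, and at 5.43, 6.10 and 5.60 TPM in pigs 31, 33 and 34 of Group 3. The 3 hearts without NRP lay above the 3 Group 2 hearts, with means of 5.71 ± 0.347 and 4.03 ± 0.547 TPM (SD, n = 3 each). The log2 fold change was 0.42 (SE 0.32, limma adjusted p = 0.852, exact permutation p = 0.1). The summed fibroblast markers also lay higher in Group 3, at 526 to 655 TPM against 390 to 507 TPM in Group 2. Most of that sum was DCN, with means of 404 and 312 TPM. LUM and COL1A2 overlapped, and mean PDGFRA was lower in Group 3 (2.82 against 3.95 TPM). The platelet markers summed to 3.41 to 5.47 TPM against 2.64 to 4.02 TPM. The part of fibroblasts and platelets in the PTGS1 values was not tested. Group 1 differed from Group 2 by 0.37 (SE 0.32, limma adjusted p = 0.993), of which 0.07 was left without pig 30. When TPM were divided by the median-of-ratios factor of each heart, PTGS1 in Group 1 ran from 5.11 to 6.60. This was above all Group 2 hearts, at 3.31 to 4.36, and the log2 fold change was 0.48 (limma adjusted p = 0.568). The share of all genes without overlap after this division was not counted.

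The linear ratio of PTGS2 to PTGS1 TPM within a heart does not depend on how that heart was scaled. PTGS2 was at 7.91, 26.6 and 3.67 times the TPM of PTGS1 in pigs 27, 28 and 30, at 2.57, 3.12 and 2.83 times in pigs 24, 25 and 29, and at 1.76, 6.15 and 0.855 times in pigs 31, 33 and 34. Pig 34 was the only heart in which PTGS1 exceeded PTGS2. On the log2 scale, with 1 TPM added to each gene, the ratio averaged 2.98 ± 1.37 in Group 1, 1.30 ± 0.15 in Group 2 and 0.99 ± 1.34 in Group 3 (SD, n = 3 each). Group 1 exceeded Group 2 by 1.67 with no overlap (exact permutation p = 0.1, two-sided), and by 0.93 without pig 28. The difference was 1.99 from Group 3 (exact permutation p = 0.2), and 1.24 without pig 28. Group 3 lay 0.31 below Group 2 (difference -0.31, exact permutation p = 0.7), which turned to 0.28 above it without pig 34 and became -1.04 without pig 33.

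**Figure D2:**
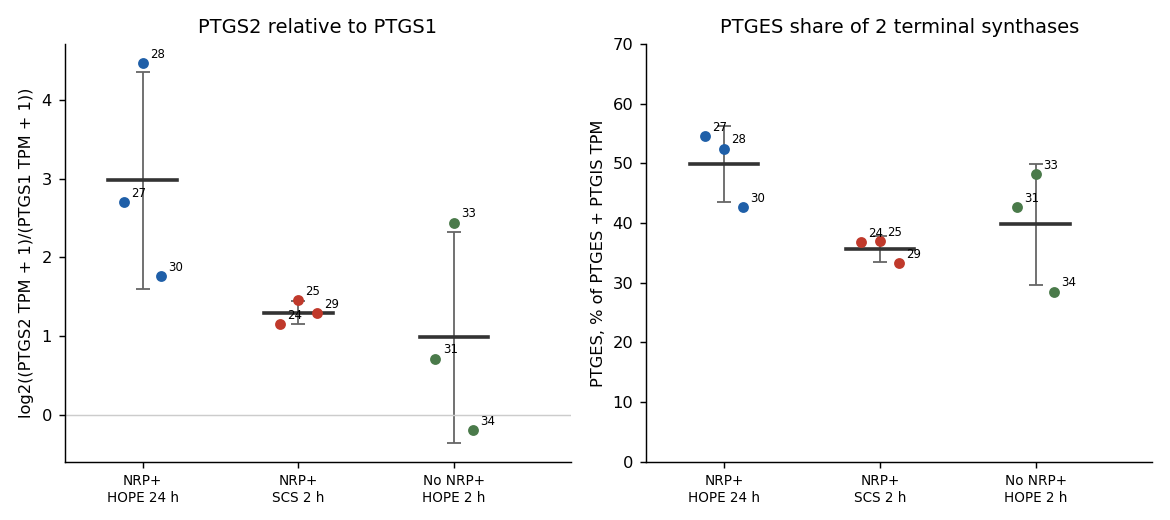
Left, log2 of PTGS2 TPM + 1 over PTGS1 TPM + 1; right, PTGES as percent of the summed TPM of PTGES and PTGIS; points are hearts with pig numbers, thick lines are means of 3 hearts and bars are SD. Both measures were higher in all 3 Group 1 (NRP + HOPE 24 h) hearts than in all 3 Group 2 (NRP + SCS 2 h) hearts, and in Group 3 (No NRP + HOPE 2 h) pig 34 lay below and pig 33 above all Group 2 hearts on both.

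Of the terminal synthases, PTGES (the inducible prostaglandin E synthase) was at 6.71, 9.69 and 11.3 TPM in pigs 27, 28 and 30, at 6.05, 5.16 and 4.35 TPM in pigs 24, 25 and 29, and at 3.43, 7.97 and 3.52 TPM in pigs 31, 33 and 34. All Group 1 hearts lay above all Group 2 hearts, with means of 9.23 ± 2.32 and 5.19 ± 0.848 TPM (SD, n = 3 each). The log2 fold change was 0.71 (SE 0.35, limma p = 0.0620, adjusted p = 0.993, exact permutation p = 0.1) and ran from 0.56 to 0.90 over the other settings. Against Group 3, at 4.97 ± 2.59 TPM (SD, n = 3), it was 0.83 (SE 0.35, limma adjusted p = 0.795), and pig 33 overlapped with Group 1. After division by the median-of-ratios factors the Group 1 hearts, at 8.40 to 10.6, lay above all Group 3 hearts, at 2.97 to 7.39. How many of all genes did so after this division was not counted.

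PTGIS (prostacyclin synthase) was at 5.60, 8.78 and 15.2 TPM in pigs 27, 28 and 30, at 10.4, 8.81 and 8.75 TPM in pigs 24, 25 and 29, and at 4.61, 8.58 and 8.84 TPM in pigs 31, 33 and 34. The groups overlapped in all 3 comparisons, with log2 fold changes of -0.02 between Group 1 and Group 2, -0.35 between Group 3 and Group 2, and 0.33 between Group 1 and Group 3 (SE 0.36 each, limma adjusted p from 0.901 to 0.997), and the first was 0.10 under median-of-ratios scaling. Leaving out single hearts moved the first from -0.36 (without pig 30) to 0.29 (without pig 27), the second from -0.49 (without pig 34) to -0.08 (without pig 31), and the third from -0.01 (without pig 30) to 0.64 (without pig 27). The lowest PTGIS values were in pigs 31 and 27, where the summed endothelial markers were also lowest, at 212 and 204 TPM against 333 to 470 TPM in the other 7 hearts. The highest was in pig 30, where the summed mesothelial markers reached 170 TPM against 13.2 to 65.5 TPM elsewhere. Of that sum 166 TPM was KRT8, while WT1 of the same list was at 3.41 TPM in pig 30 and 2.77 to 11.5 TPM in the other hearts, and LRRN4 was at 0 in pig 30. Pigs 27 and 31 also had the lowest median-of-ratios factors and pig 30 the highest, and the part of these measures in the PTGIS values was not tested. After division by the factors, Group 3 (5.91 to 7.95) lay below all Group 2 hearts (8.15 to 9.61). The share of all genes that did so was not counted. In RefSeq annotation the PTGIS gene model overlaps the locus LOC106506037, so some of its reads may belong to either.

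Within a heart, PTGES made up 54.5%, 52.5% and 42.7% of the summed TPM of PTGES and PTGIS in pigs 27, 28 and 30. It made up 36.8%, 36.9% and 33.2% in pigs 24, 25 and 29, and 42.7%, 48.2% and 28.5% in pigs 31, 33 and 34. The share averaged 49.9 ± 6.32% in Group 1, 35.7 ± 2.11% in Group 2 and 39.8 ± 10.2% in Group 3 (SD, n = 3 each). Group 1 was 14.2 percentage points above Group 2 with no overlap (exact permutation p = 0.1, two-sided) and 11.9 to 17.8 points above it when any 1 heart was left out. Between Group 1 and Group 3 the difference was 10.1 points (exact permutation p = 0.2), and 4.48 points without pig 34. Between Group 3 and Group 2 it was 4.10 points (exact permutation p = 0.5), which became 9.75 points without pig 34 and -0.10 points without pig 33.

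PLA2G4A, the cytosolic phospholipase A2 that frees arachidonic acid, was at 2.60, 6.97 and 6.78 TPM in pigs 27, 28 and 30, at 2.54, 4.65 and 3.54 TPM in pigs 24, 25 and 29, and at 2.17, 4.35 and 4.72 TPM in pigs 31, 33 and 34. Pigs 28 and 30 stood above the other 7 hearts, and pig 27 lay with the lowest of the other groups, so that all groups overlapped. Its log2 fold changes were 0.43 between Group 1 and Group 2, 0.03 between Group 3 and Group 2, and 0.40 between Group 1 and Group 3 (SE 0.39 each, limma adjusted p from 0.967 to 0.993). Leaving out single hearts moved the first from 0.24 (without pig 28) to 0.81 (without pig 27), the second from -0.14 (without pig 24) to 0.30 (without pig 31), and the third from 0.13 (without pig 31) to 0.78 (without pig 27). In RefSeq annotation of Sscrofa11.1 the PLA2G4A and PTGS2 gene models overlap. No source states that the counting used strand, so reads in the shared stretch cannot be assigned to one of them.

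The receptor PTGER2, which raises cyclic AMP on binding prostaglandin E2, was close to the filter of 1 TPM. It was at 0.731, 0.801 and 1.53 TPM in pigs 27, 28 and 30, at 0.957, 1.31 and 2.11 TPM in pigs 24, 25 and 29, and at 0.970, 0.930 and 2.36 TPM in pigs 31, 33 and 34. It was under 1 TPM in 5 hearts, and the groups overlapped in every comparison, with log2 fold changes of -0.28, -0.05 and -0.23 in the same order as for PLA2G4A (SE 0.36 each, limma adjusted p from 0.989 to 0.993), the second being 0.00081 under median-of-ratios scaling. Leaving out single hearts moved the first from -0.45 (without pig 30) to -0.10 (without pig 29), the second from -0.31 (without pig 34) to 0.14 (without pig 29), and the third from -0.40 (without pig 30) to 0.03 (without pig 34). The gene models of PTGER2 and the prostaglandin D receptor gene PTGDR also overlap in RefSeq. PTGER4 encodes the other receptor of this kind. Its listing at 0 in all 9 hearts cannot be read as absence, because 2166 of 13143 rows with a symbol were listed at 0 in all hearts, among them MYH11, the smooth muscle myosin gene, while ACTA2 and TAGLN of the same cells were measured.

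HPGD, the first enzyme of prostaglandin breakdown, was higher in the hearts without NRP. It was at 0.528, 0.551 and 1.77 TPM in pigs 27, 28 and 30, at 0.216, 0.630 and 1.77 TPM in pigs 24, 25 and 29, and at 2.44, 2.12 and 9.12 TPM in pigs 31, 33 and 34. All 3 hearts without NRP lay above all 6 hearts with NRP, a pattern found in 1.09% of the tested genes. The highest NRP value, 1.77 TPM, was close to the lowest value without NRP, 2.12 TPM, and 4 hearts were under 1 TPM. The means were 0.950 ± 0.711 TPM in Group 1, 0.872 ± 0.805 TPM in Group 2 and 4.56 ± 3.95 TPM in Group 3 (SD, n = 3 each).

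Mean HPGD was 5.22 times higher in Group 3 than in Group 2, and the log2 fold change of TPM + 1 was 1.43 (SE 0.48, limma p = 0.0100, adjusted p = 0.508, exact permutation p = 0.1). Between Group 1 and Group 3 it was -1.35 (SE 0.48, limma p = 0.0142, adjusted p = 0.658, exact permutation p = 0.1), and between the NRP groups it was 0.09 (SE 0.48, limma adjusted p = 0.993). Without pig 34 the first value was 0.89 (limma adjusted p = 0.700) and the second -0.81 (limma adjusted p = 1). With a pseudocount of 0.1 TPM in place of 1 they were 2.30 and -2.03. The value between the NRP groups was 0.28 with that pseudocount, -0.20 without pig 30, -0.18 without pig 24 and -0.06 with array weights. The limma F test over all groups gave an adjusted p = 0.588. The summed neutrophil markers were also split by NRP, in the other direction, at 0 to 0.343 TPM in the hearts without NRP and 0.357 to 13.2 TPM in those with it, with CSF3R listed at 0 in all hearts. Smooth muscle and pericyte markers summed to 358 to 426 TPM without NRP and 188 to 382 TPM with it. Among them ACTA2 was at 72.0 to 88.1 TPM without NRP and 15.8 to 55.9 TPM with it, without overlap, while TAGLN, the most abundant, and PDGFRB overlapped. The part of these cells in the HPGD values was not tested. The HPGD gene model overlaps an uncharacterised RefSeq locus, so some of its reads may belong to either.

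**Figure D3:**
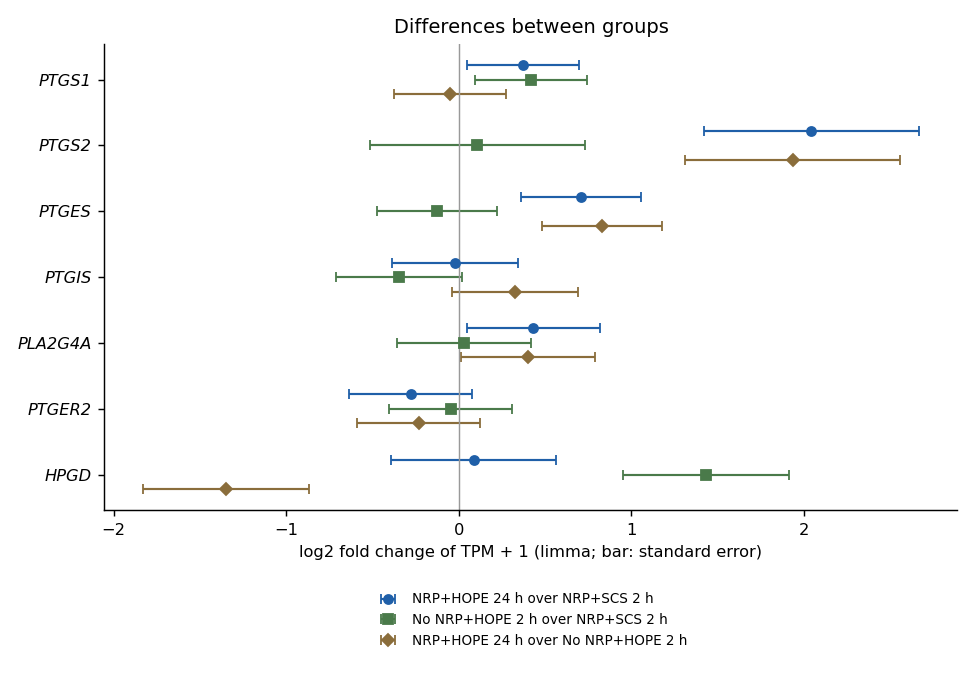
Log2 fold changes of TPM + 1 for the 7 tested prostaglandin genes (horizontal axis) in the 3 comparisons of groups, from limma; bars are standard errors. The values farthest from 0 were those of PTGS2 in both comparisons with Group 1 (NRP + HOPE 24 h) (2.04 and 1.94) and those of HPGD in both comparisons with Group 3 (No NRP + HOPE 2 h) (1.43 and -1.35), and no adjusted p was under 0.05.

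Counted together, 2 of the 7 genes (PTGS2 and PTGES) were higher in every Group 1 heart than in every Group 2 heart, against 2.5% of all tested genes, and 0 of 7 were lower in every heart, against 7.32% (9.82% in either direction). Between Group 3 and Group 2, 2 of 7 (PTGS1 and HPGD) were higher without overlap against 4.44%, and 0 of 7 were lower against 10.3% (14.7% in either direction). Between Group 1 and Group 3, 0 of 7 were higher without overlap against 2.97%, and 1 of 7 (HPGD) was lower against 4.51% (7.48% in either direction). The median log2 fold change of the 7 genes was 0.37, 0.03 and 0.33 in these comparisons, beside -0.12, -0.07 and -0.03 over all tested genes. Without pig 30 the first was 0.07 and the third -0.01, beside -0.32 and -0.23 over all tested genes. The second ran from -0.08 (without pig 33) to 0.27 (without pig 31), beside -0.11 and 0.06 over all tested genes. With array weights the medians of the 7 genes were 0.19, 0.23 and 0.09, beside -0.19, -0.02 and -0.16 over all tested genes. Median-of-ratios scaling brought the median of all genes between Group 1 and Group 2 to 0.00, a shift of about the size of that median. Under it, 3 of the 7 genes had an unadjusted limma p under 0.05 there, against 8.59% of all genes, and 0 of 7 an adjusted p under 0.05, against 0.0342%. Between Group 3 and Group 2 there were 2 of 7 at an unadjusted limma p under 0.05 under this scaling, against 12.4%, and between Group 1 and Group 3 there were 3 of 7, against 11.7%. At an adjusted p under 0.05 there were 0 of 7 in both, against 0.162% and 0.0256%.

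Beyond these genes, 62 further genes of the pathway were looked up in 6 lists, of which 44 were listed and 30 tested. No gene of these lists passed an adjusted p of 0.05 in any comparison. At an unadjusted limma p under 0.05, 3 of 30 (PTGIR, CYSLTR2 and IL1A) were higher and 0 lower in Group 1 than in Group 2, against 1.82% and 3.14% of all genes. There were 1 higher (CYSLTR2) and 1 lower (ACSL4) in Group 3 than in Group 2, against 2.57% and 4.65%. There were 3 higher (IL1A, ACSL4 and NFKB1) and 2 lower (ANXA1 and TSC22D3) in Group 1 than in Group 3, against 2.78% and 3.23%.

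Among the other prostanoid receptors, 2 of 7 were tested. PTGIR, the prostacyclin receptor, was at 1.52, 3.39 and 4.45 TPM in Group 1, 1.70, 1.27 and 0.894 TPM in Group 2 and 0.954, 1.82 and 1.56 TPM in Group 3, in the order of pigs given above. Pig 27 lay within the range of Group 2 and the other 2 hearts of Group 1 above it. The log2 fold change between these groups was 0.79 (SE 0.36, limma adjusted p = 0.991). PTGER3, a further prostaglandin E2 receptor, had a log2 fold change of 0.67 (SE 0.42, limma adjusted p = 0.993), with 2.73 to 9.70 TPM against 1.29 to 3.77 TPM.

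Of 8 tested genes of arachidonate release, ACSL4, which loads arachidonic acid onto coenzyme A for storage in membranes, differed most. It was at 48.0, 76.4 and 79.8 TPM in Group 1, at 72.4, 69.4 and 54.9 TPM in Group 2 and at 27.0, 44.9 and 21.5 TPM in Group 3. All hearts without NRP lay below all hearts with NRP, as 1.26% of the tested genes did. The log2 fold change was -1.11 between Group 3 and Group 2 (SE 0.32, limma adjusted p = 0.414) and 1.14 between Group 1 and Group 3 (SE 0.32, limma adjusted p = 0.402). ANXA1, the glucocorticoid-regulated inhibitor of phospholipase A2, was at 70.9 to 154 TPM in Group 1 and 129 to 239 TPM in Group 3, and the groups overlapped (log2 fold change -0.81, limma adjusted p = 0.751).

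The 4 tested genes among the other prostanoid synthases had log2 fold changes between -0.31 and 0.34 in all comparisons, and 0 of 4 had an unadjusted limma p under 0.05, against 4.97%, 7.22% and 6.01% of all genes. Of the 3 tested genes of transport and breakdown, SLCO2A1, the carrier that brings prostaglandins into cells for breakdown, was lower in all Group 3 hearts (5.51, 15.7 and 13.4 TPM) than in all Group 2 hearts (22.4, 18.8 and 15.8 TPM). The gap between the groups was small, and the log2 fold change was -0.77 (SE 0.38, limma adjusted p = 0.715).

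Of 5 tested lipoxygenase and leukotriene genes, CYSLTR2, a receptor for cysteinyl leukotrienes, was at 11.9, 27.2 and 29.5 TPM in Group 1, at 9.28, 6.51 and 10.5 TPM in Group 2 and at 13.6, 19.4 and 24.2 TPM in Group 3. All 6 HOPE hearts lay above the 3 SCS hearts, as in 0.671% of the tested genes. The log2 fold change against Group 2 was 1.21 for Group 1 (SE 0.37, limma adjusted p = 0.669) and 1.03 for Group 3 (SE 0.37, limma adjusted p = 0.561), and both comparisons used the same 3 SCS hearts. ALOX5, the enzyme that opens the leukotriene pathway, reached 6.69 TPM in pig 34 and 0.610 to 2.69 TPM in the other 8 hearts.

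**Figure D4:**
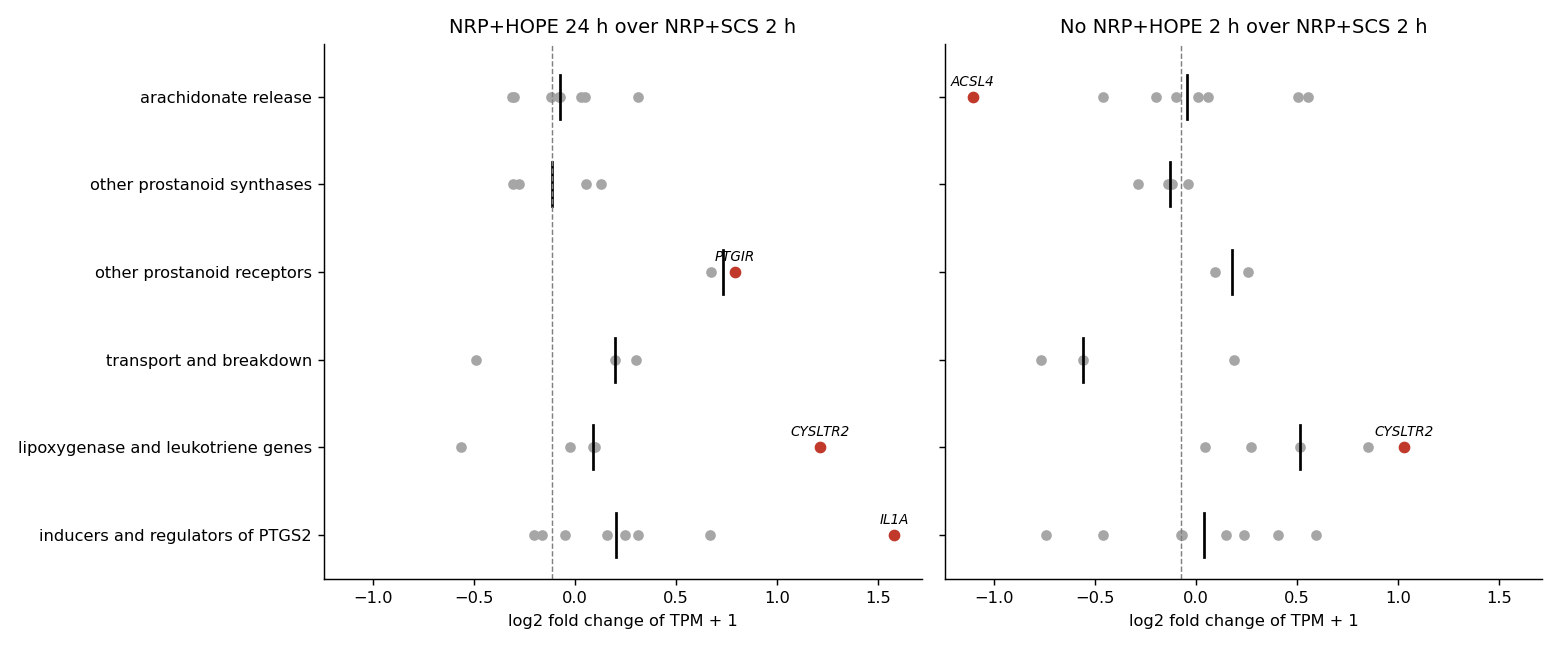
Log2 fold changes of TPM + 1 (horizontal axis) of the 30 tested genes of 6 pathway lists (vertical axis) against Group 2 (NRP + SCS 2 h), for Group 1 (NRP + HOPE 24 h) (left) and Group 3 (No NRP + HOPE 2 h) (right); red points have an unadjusted limma p under 0.05, black ticks are list medians and dashed lines the median of all tested genes. The red points are CYSLTR2 on both sides, IL1A and PTGIR on the left and ACSL4 on the right.

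Of 8 tested inducers and regulators of PTGS2, the cytokine gene IL1A was at 4.65, 13.0 and 9.35 TPM in Group 1, at 1.44, 3.22 and 1.97 TPM in Group 2 and at 1.29, 4.63 and 1.06 TPM in Group 3. All Group 1 hearts lay above all other hearts, as in 0.586% of the tested genes, with pig 27 only just above pig 33. Against Group 2 the log2 fold change was 1.58 (SE 0.45, limma adjusted p = 0.479). The log2 fold change of Group 1 against Group 3 was 1.65 (SE 0.45, limma adjusted p = 0.375). NFKB1, a subunit of the factor that drives PTGS2 transcription, was at 10.6, 15.4 and 25.4 TPM in Group 1, at 11.1, 7.48 and 11.2 TPM in Group 2 and at 4.40, 9.49 and 3.68 TPM in Group 3. Between Group 1 and Group 3 its log2 fold change was 1.41 without overlap (SE 0.39, limma adjusted p = 0.389). TSC22D3, a glucocorticoid-induced gene, was at 58.1 to 105 TPM in Group 1 and 93.6 to 184 TPM in Group 3 (log2 fold change -0.76, limma adjusted p = 0.795).

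The genes whose levels followed those of PTGS2 most closely over the 9 hearts were sought by the mean absolute difference of log2(TPM + 1), each gene centred on its own mean. They were CXCL8 (0.39), IL1A (0.41), ESM1 (0.44), a row named for the short RNA family RF00092 (0.50) and ADORA2A (0.52), beside a mean absolute deviation of 1.09 for PTGS2 itself. CXCL8, a chemokine for neutrophils, was at 10.8, 74.2 and 22.8 TPM in pigs 27, 28 and 30, at 3.08, 6.67 and 2.90 TPM in pigs 24, 25 and 29, and at 4.47, 19.6 and 5.90 TPM in pigs 31, 33 and 34. ESM1, secreted by endothelial cells, reached 34.5 TPM and ADORA2A, an adenosine receptor gene, 15.6 TPM in pig 28, the heart with the highest PTGS2. Within the group without NRP, all 5 genes were highest in pig 33, as PTGS2 was. Choosing genes by nearness to PTGS2 favours such shared peaks.

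For HPGD the nearest genes were MAP2K6 (0.13), TTC25 (0.23), LRMP (0.25) and CCDC68 (0.27), beside a mean absolute deviation of 0.68 for HPGD. MAP2K6, a kinase that activates p38, was at 0.266, 0.463 and 0.826 TPM in pigs 27, 28 and 30, at 0.182, 0.397 and 1.19 TPM in pigs 24, 25 and 29, and at 1.66, 1.71 and 6.49 TPM in pigs 31, 33 and 34. These 4 genes were all highest in pig 34, as HPGD was, which their choice by nearness to HPGD favoured. These likenesses describe 9 hearts of 3 groups and were not tested.

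**Figure D5:**
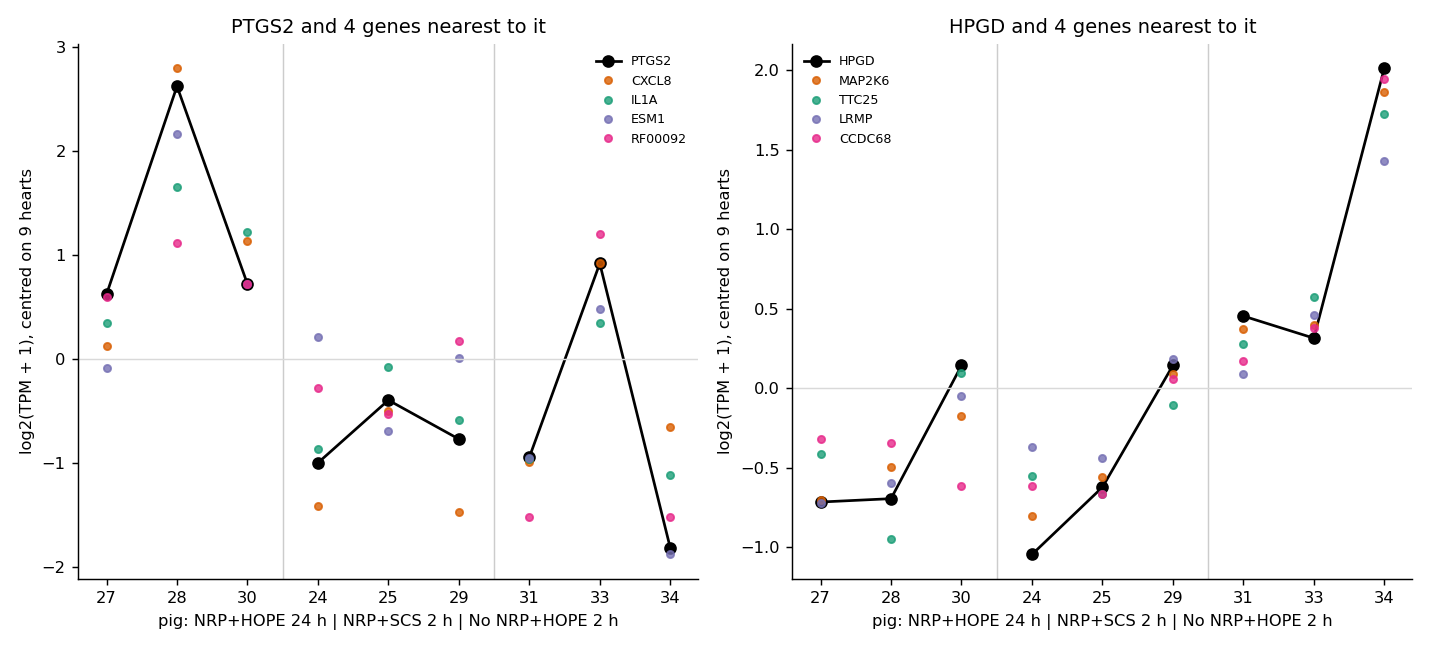
log2(TPM + 1) centred on the 9 hearts (vertical axis) for PTGS2 (left) and HPGD (right), drawn as joined black points, and for 4 genes nearest to each, drawn as coloured points; the horizontal axis gives the pigs by group. The PTGS2 profile was highest in pig 28 and lowest in pig 34, and the HPGD profile was highest in pig 34 and lowest in pig 24.

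The other 5 tested genes had mean absolute deviations of 0.26 to 0.42. The genes nearest to them were HIVEP2 for PTGES (0.13), GLRX5 for PTGS1 (0.09), CTDP1 for PTGIS (0.07), TMEM115 for PTGER2 (0.09) and CD48 for PLA2G4A (0.12).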

How the data were processed

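RNA from 9 apex biopsies, 1 per heart, was sequenced. Per the labels and methods, the authors selected mRNA with oligo(dT), and their processing notes name bcl2fastq 2.17, Trimmomatic 0.36, STAR 2.5.2b, featureCounts (Subread 1.5.2) and DESeq2. The genome build and the source of gene lengths are not given in the sources used here. The authors deposited TPM, each column summing to 1000000, and 9 columns that matched no sample were not used. Read depth is unknown, so precision rests on the spread between 3 pigs per group.

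log2(TPM + 1) was fitted with limma 3.58.1 (R 4.3.3; statmod 1.5.0 for array weights), 1 mean per group, with variance trend, two-sided, for the 11782 genes reaching 1 TPM in 3 or more hearts, with Benjamini-Hochberg adjustment over all of them. Fold changes on this scale understate those of low genes. Exact permutation tests and figures used Python 3.11.15 with numpy 2.4.6, pandas 2.3.3 and matplotlib 3.10.9. The limma code was tested on simulated data. Alternatives were a pseudocount of 0.1, no filter, median-of-ratios scaling, a minimum mean of 5 TPM, leaving out mitochondrial genes, fitting only the 6 hearts compared, no trend, array weights and leaving out each heart.

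The 9 prostaglandin genes, the pathway and marker lists and the tests were chosen with earlier results of these data known. All 9 were named. Pathway genes could be named at an unadjusted limma p under 0.05 or among the 3 largest absolute log2 fold changes of a list, and the 5 nearest profiles of each tested gene could be named as well. Not all of these are given, and 1 of those of HPGD is not reported here. Symbols were matched directly or by identifier. Without PTGDS, the synthase share covers PTGES and PTGIS. Promoter and protein sequences were not used here.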

Additional observations from a re-analysis of the deposited data

How the results depend on the processing

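No paired analysis was possible because each group held different pigs and the groups share no replicate numbers. None of the 21 comparisons of the 7 genes crossed an adjusted p of 0.05 under any alternative (348 recomputed values), and 23 values in 9 comparisons changed sign. The cause was not tested. Array weights turned PTGES between Group 3 and Group 2 to 0.23 and HPGD between Groups 1 and 2 to -0.056. Median-of-ratios scaling turned PTGIS between Groups 1 and 2 to 0.10 and PTGER2 between Group 3 and Group 2 to 0.00081. Leaving out single hearts gave ranges of log2 fold change that crossed 0 between Group 3 and Group 2 for PTGS2 (-0.66 to 0.71), PTGES (-0.46 to 0.050), PTGER2 (-0.31 to 0.14) and PLA2G4A (-0.14 to 0.30). They crossed 0 between Groups 1 and 2 for PTGIS (-0.36 to 0.29) and HPGD (-0.20 to 0.41), and between Group 1 and Group 3 for PTGS1 (-0.35 to 0.16), PTGIS (-0.010 to 0.64) and PTGER2 (-0.40 to 0.029). Between Group 3 and Group 2 the PTGS2 to PTGS1 ratio ran from -1.04 to 0.28 on the log2 scale and the PTGES share from -0.10 to 9.75 points.

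Without single hearts, PTGS2 ran from 1.39 to 2.39 between Groups 1 and 2 and from 1.29 to 2.70 between Group 1 and Group 3, and HPGD from 0.89 to 1.76 between Group 3 and Group 2. A mean TPM of at least 5 left out PTGER2, PLA2G4A and HPGD.

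The number of genes called over the whole table, 3 between Groups 1 and 2, 6 between Groups 3 and 2 and 6 between Groups 1 and 3, changed more. In that order of comparisons, a pseudocount of 0.1 gave 0, 6 and 3 genes and no filter 1, 1 and 4. A mean TPM of at least 5 gave 6, 8 and 4, median-of-ratios scaling 4, 19 and 3, and leaving out mitochondrial genes 2, 20 and 2. Fitting only the 6 hearts compared gave 13, 3 and 7, no trend 3, 6 and 4, array weights 60, 94 and 14, and leaving out single hearts 0 to 9, 1 to 13 and 0 to 16. The lowest counts came without pig 27, 28 or 30 (Groups 1 and 2), 24 or 25 (Groups 3 and 2) and 30 (Groups 1 and 3), and the highest without pig 34, 29 and 33.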
